A study of Mus musculus with 4 samples.

Results

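Aminoacyl-tRNA synthetases join each amino acid to its tRNA, and most amino acids have a cytosolic enzyme and a separate mitochondrial one, both encoded in the nucleus. The transcripts of these enzymes were followed in RNA that came down with CUGBP1 in proliferating C2C12 (LKO-1) myoblasts. Members were found by name, as transcripts whose symbol is that of a synthetase and whose probe set (the group of array probes read as 1 value) names that gene alone. This gave 34 genes with 1 probe set each, among 21044 probe sets that name 1 gene. Of the 34, 16 encode cytosolic enzymes, 16 mitochondrial enzymes (symbols ending in 2), and *Gars* and *Kars* encode both forms from 1 gene. *Aars*, for alanine, was left out because its probe set (10575550) also names *Exosc6*.

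C2C12 is a mouse myoblast line, and LKO-1 is its stable derivative carrying an empty lentiviral vector under puromycin selection, kept below 70% confluency. All 4 arrays came from this 1 derivative line, 2 from immunoprecipitates with the monoclonal CUGBP1 antibody 3B1 (CUGBP1 IP) and 2 from immunoprecipitates with normal IgG (control IgG). Each value is an intensity divided by the 5th percentile of its own array, so a transcript with no signal reads about 1. The values of different genes depend on their probes, and only differences and ratios of a gene between groups are compared here.

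The control IgG arrays were not alike. The median over the whole table was 1.08 and 1.22 in control IgG and 1.31 and 1.47 in the CUGBP1 IP, and the 95th percentile was 2.36 and 5.96 against 9.37 and 13.0. Among the synthetases, control IgG replicate 2 was above control IgG replicate 1 for 33 of 34. Background was set by olfactory and vomeronasal receptor transcripts, 95% of which read no more than 1.09 to 1.29, depending on the array. All 6 myoblast markers, *Myod1*, *Myf5*, *Cdh15*, *Des*, *Pax7* and *Msc*, exceeded it in both immunoprecipitates with 3B1, and 0 of 6 markers of other cells (*Alb*, *Ptprc*, *Cdh5*, *Epcam*, *Adipoq* and *Gfap*) did.

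CUGBP1 (encoded by *Celf1*) binds GU-rich sequence in messages, recruits deadenylases and hastens decay. Synthetases are housekeeping enzymes of translation. Several of the cytosolic ones sit together in the multisynthetase complex, and the mitochondrial ones serve only the translation of the mitochondrial genome. Many cytosolic synthetase genes are also known targets of the stress factor ATF4, which binds a C/EBP-ATF element. That element was looked for as a feature the choice of genes did not use. The letters TGATGNAA on either strand were in the RefSeq promoters (300 bases, GRCm38.p6) of 4 of the 25 synthetases matched there, and in 3.97% of all promoters. They were found for 3 of 9 cytosolic genes, for *Gars* and for 0 of 14 mitochondrial genes. The difference between these shares was not tested. The matches of *Iars* and *Yars* lie after the gene start. The matching windows are shown to let the letters be read in place. Capitals mark the match, and a reverse-complement match reads TTNCATCA:
*Iars*, chr13:49682126-49682155, + strand: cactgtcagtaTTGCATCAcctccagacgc
*Tars*, chr15:11399655-11399684, - strand: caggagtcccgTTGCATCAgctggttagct
*Yars*, chr4:129189895-129189924, + strand: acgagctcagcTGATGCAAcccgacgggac
*Gars*, chr6:55037960-55037989, + strand: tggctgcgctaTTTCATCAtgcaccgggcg
These letters describe the promoters, their lack says only that they are not in that window, and they say nothing of binding to RNA by CUGBP1. The log2 differences of these 4 transcripts between CUGBP1 IP and control IgG were 0.99 for *Iars*, 0.84 for *Gars*, 0.66 for *Tars* and 0.55 for *Yars*.

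The question of the experiment was which transcripts associate with CUGBP1. limma (two-sided, Benjamini-Hochberg over all 21044 probe sets, threshold 0.05) called 0 of 34 higher after CUGBP1 IP, where 1.95% of all probe sets were called, and 0 of 34 lower, where 0.138% were. At an unadjusted p under 0.05, 9 of the 34 were higher, against 6009 of 21044, and without the intensity trend 8 were, against 4757 of 21044. With arrays scaled to their medians 1 of 34 was called higher, beside 1477 of 21044. When only probe sets above background on both CUGBP1 IP arrays were tested, 2 of the 30 synthetases left were called higher, beside 846 of 11656. That filter keeps probe sets by the CUGBP1 IP values under test, so these 2 calls lend no support. Dividing the mean CUGBP1 IP value by the mean control IgG value (signal-to-negative ratio) put 0 of 34 in the top 5% (ratio of 2.57 or more), where by construction 5% of all probe sets lie. The highest member ratio was 1.99 and the lowest 1.11. The 34 ratios ran from percentile 30.9 to percentile 89.5 of all probe sets.

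The direction of the differences was mostly that of all probe sets. For 28 of 34 synthetases the lower CUGBP1 IP value exceeded the higher control IgG value, where 66.3% of all probe sets showed that order. The log2 difference was above 0 for 34 of 34, beside 94.0% of all probe sets. The median log2 difference over all probe sets was 0.29, and 27 of the 34 were above it, 16 of them cytosolic and 9 mitochondrial. With arrays scaled to their medians 27 of 34 were above 0, beside 51.7% of all probe sets, and with quantile normalization 14 of 34, beside 44.9%. These differences are not divided by the abundance of each transcript in the lysate, since input RNA was not analysed here.

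**Figure D1:**
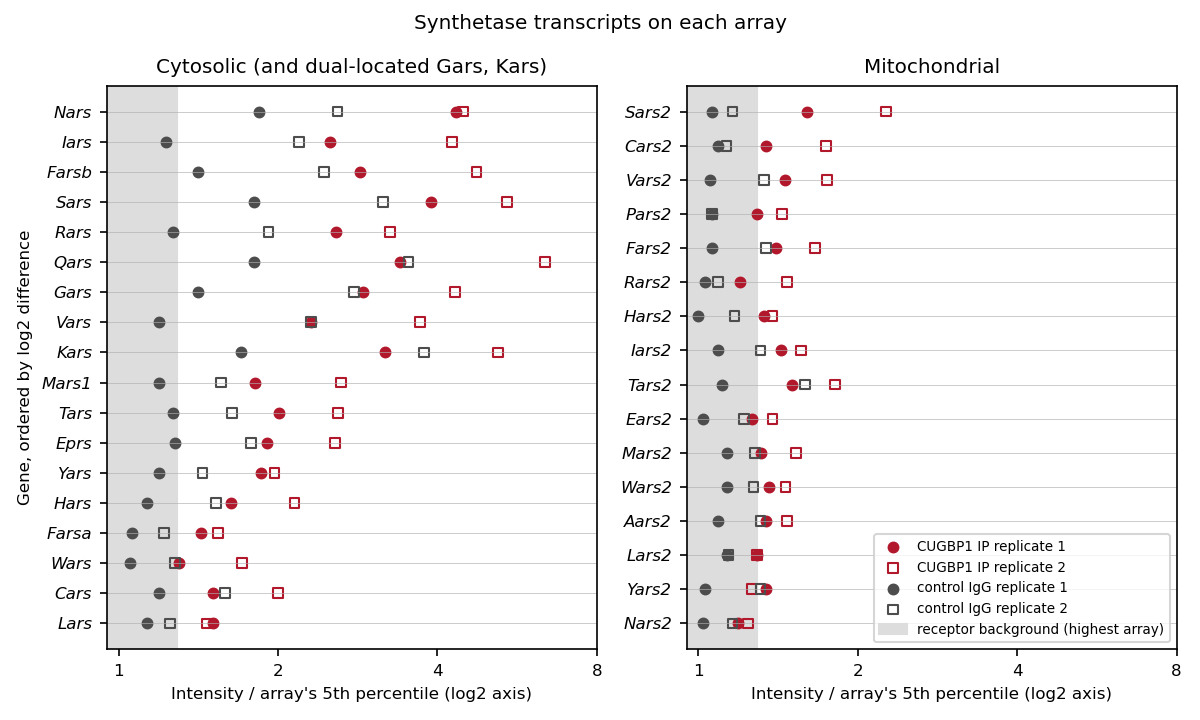
Each synthetase transcript on the 4 arrays, as intensity over the 5th percentile of the array (log2 axis), cytosolic and dual-located genes left and mitochondrial genes right, with the range up to the highest receptor background (1.29) in grey. The CUGBP1 IP points lie to the right in most rows, and in 4 rows, those of *Qars*, *Kars*, *Cars* and *Tars2*, control IgG replicate 2 passed CUGBP1 IP replicate 1.

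As deposited, the cytosolic enzymes had a higher median log2 difference than the mitochondrial ones, 0.67 (range 0.33 to 1.01, 16 genes) and 0.32, and the difference of these classes was not tested. With quantile normalization the order turned, to -0.069 and 0.025, and 5 of 16 cytosolic enzymes were above 0. As deposited, all 16 were on the upper side of the median of all probe sets. Array values are given as replicates 1 and 2 of the CUGBP1 IP against replicates 1 and 2 of control IgG. *Nars*, the asparagine enzyme (probe set 10459405), read 4.34 and 4.47 against 1.84 and 2.59. Its groups did not overlap, and its log2 difference of 1.01 (SE 0.65, 95% interval -0.26 to 2.28) missed the threshold (limma adjusted p = 0.235). *Iars*, for isoleucine (probe set 10405094), read 2.51 and 4.26 against 1.23 and 2.19. *Farsb*, the beta subunit of the phenylalanine enzyme (probe set 10355931), read 2.86 and 4.74 against 1.41 and 2.44. Both were separated between groups, with replicate 2 the brighter in each, and log2 differences of 0.99 (SE 0.47, limma adjusted p = 0.156) and 0.99 (SE 0.54, limma adjusted p = 0.188). *Farsa*, for the catalytic alpha subunit of the same enzyme, read 1.43 and 1.54 against 1.06 and 1.22, with a difference of 0.38 (SE 0.19, limma adjusted p = 0.169). With quantile normalization *Nars* had -0.28 and *Farsb* -0.10, while *Iars* had 0.09. Without control IgG replicate 1 the cytosolic median was 0.41.

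The size of several cytosolic differences depended on which control array was used. *Qars*, for glutamine, read 3.40 and 6.38 against 1.80 and 3.53, so that the groups overlapped. Over control IgG replicate 1 its ratio was 2.72, and over replicate 2 it was 1.39. *Vars*, for valine, read 2.31 and 3.71 against 1.19 and 2.31, with the brighter control equal to the dimmer CUGBP1 IP array. *Cars*, for cysteine, had among the lowest cytosolic ratios (1.26) and also overlapped, at 1.51 and 2.00 against 1.19 and 1.59. Of the 34 ratios, 8 were over 1.5 times as large against control IgG replicate 1 as against control IgG replicate 2, all of them cytosolic or dual-located. The same held for 3905 of all 21044 probe sets, and for 3735 of the 7727 above background on all 4 arrays.

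*Gars* and *Kars*, the glycine and lysine enzymes that serve both compartments, had log2 differences within the range of the cytosolic transcripts. *Gars* had 2.89 and 4.32 against 1.41 and 2.78 (log2 difference 0.84, SE 0.55, limma adjusted p = 0.243). *Kars* had 3.19 and 5.21 against 1.70 and 3.77 (0.69, SE 0.67, limma adjusted p = 0.397). The groups of *Gars* were only just apart, and those of *Kars* overlapped, with ratios of 2.47 and 1.11 over the first and second control array. Their median log2 difference was 0.76, or 0.23 without control IgG replicate 1 and 1.29 without control IgG replicate 2. With quantile normalization it was -0.39.

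Enzymes of the multisynthetase complex had a median near that of the other cytosolic enzymes, and the difference was not tested. The 7 measured, *Eprs*, *Iars*, *Lars*, *Mars1*, *Qars*, *Rars* and *Kars*, had a median log2 difference of 0.69 and a range of 0.33 to 0.99, and the 10 cytosolic enzymes outside it had 0.61, from 0.34 to 1.01. *Rars*, for arginine, read 2.57 and 3.26 against 1.27 and 1.92 (log2 difference 0.89, SE 0.42, limma adjusted p = 0.156). *Lars*, for leucine, had the lowest cytosolic difference, at 1.51 and 1.47 against 1.13 and 1.25 (0.33, SE 0.21, limma adjusted p = 0.232). *Eprs*, the fused glutamate and proline enzyme, lay between them with 0.55 (SE 0.35). By catalytic fold, the 10 class I cytosolic enzymes, with the fused *Eprs* counted among them, had a median of 0.62 and the 6 of class II a median of 0.80.

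The mitochondrial enzymes lay near the floor of the arrays. Of the 16, 3 were above the receptor background on all 4 arrays and 5 were within it on both control IgG arrays, while 14 of 16 cytosolic enzymes were above it on all 4. Their median log2 difference was 0.32 (range 0.16 to 0.78), close to the 0.29 of all probe sets. Without control IgG replicate 1 it was 0.18. A small difference this near the floor does not show that a transcript was not bound.

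*Sars2*, the mitochondrial serine enzyme (probe set 10551554), was the member nearest to the threshold. It read 1.60 and 2.26 against 1.06 and 1.16, with a log2 difference of 0.78 (SE 0.25, 95% interval 0.29 to 1.26, limma adjusted p = 0.0576). Its controls were within background. Its mean CUGBP1 IP value was therefore also divided by the mean receptor 95th percentile of the 2 control IgG arrays (1.125), which gave 1.72. That is a point value without its error, and not a lower limit of the ratio. With arrays scaled to their medians and among probe sets above background on both CUGBP1 IP arrays it passed (limma adjusted p = 0.00252 and 0.0436). With quantile normalization its difference was 0.38 (limma adjusted p = 0.146), without the intensity trend the limma adjusted p was 0.197, and with an array left out it was 0.173 to 0.663. *Cars2* read 1.34 and 1.74 against 1.09 and 1.13, and *Pars2*, for proline, 1.29 and 1.44 against 1.06 and 1.06. Their controls were within background too, and the mean CUGBP1 IP values over the same divisor were 1.37 and 1.21. These are point values as well. The 95% intervals of the log2 differences began at 0.078 for *Cars2* and 0.077 for *Pars2*. *Rars2*, at 1.20 and 1.47 against 1.03 and 1.09, was above background on 1 CUGBP1 IP array, and its value by this measure was 1.19.

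At the low end, *Nars2* read 1.19 and 1.24 against 1.02 and 1.16. It was within background on every array, so its log2 difference of 0.16 is not read as a fold. *Yars2*, for tyrosine, read 1.34 and 1.26 against 1.03 and 1.31, with overlapping groups. Without control IgG replicate 1 its log2 difference was -0.012 in place of 0.16. *Lars2* read 1.29 and 1.29 against 1.13 and 1.14, with a log2 difference of 0.18 (SE 0.15). *Tars2* was the other mitochondrial transcript whose groups overlapped, at 1.5 and 1.81 against 1.11 and 1.59.

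Set side by side by amino acid, the cytosolic enzyme had the larger log2 difference in 15 of 16 pairings, in which *Eprs* and *Fars2* each stand in 2, while with quantile normalization it had the larger one in 6 of 16. In 5 of the pairings both controls of the mitochondrial enzyme were within background, so the gap has no exact size there; *Nars* and *Nars2*, at 1.01 and 0.16, are one of these. Among the others the widest gap was between *Iars* and *Iars2*, 0.67 on the log2 scale, where *Iars2* read 1.43 and 1.56 against 1.09 and 1.31. The narrowest with that order was between *Farsa* and *Fars2*, 0.03, where *Fars2* read 1.40 and 1.66 against 1.06 and 1.34. *Cars* and *Cars2* had the opposite order, with 0.34 (SE 0.27) and 0.46 (SE 0.20). For serine both enzymes had large values for their class, 0.94 (SE 0.69) for *Sars* and 0.78 for *Sars2*. *Hars* and *Hars2*, which are neighbouring genes, had 0.51 (SE 0.28) and 0.32 (SE 0.15). No test of these gaps was made, and several of the standard errors are larger than the gaps.

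**Figure D2:**
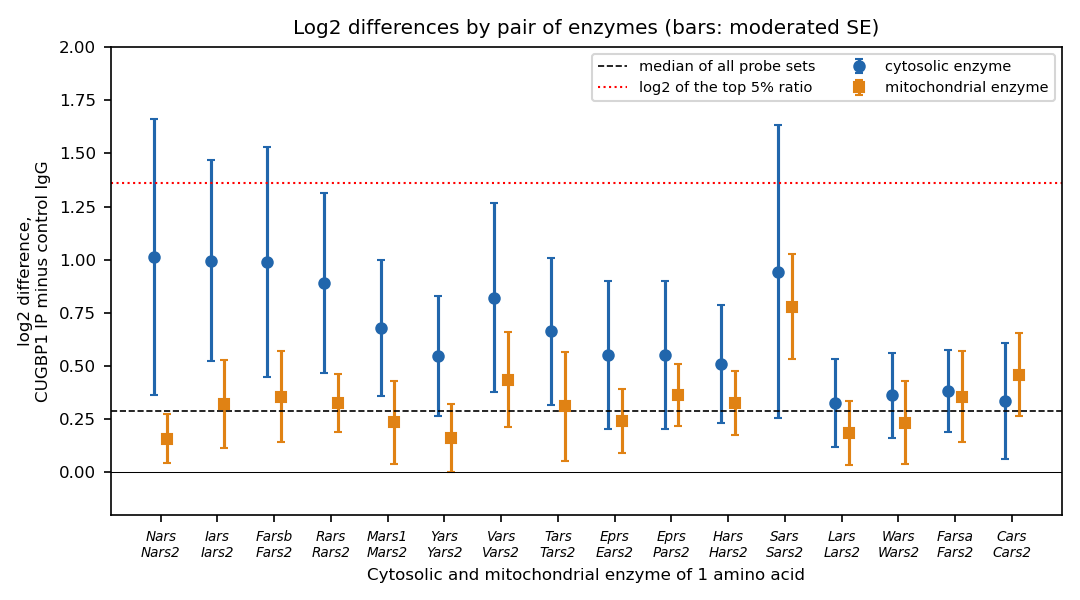
Log2 difference (CUGBP1 IP minus control IgG, with its moderated SE) of the cytosolic and the mitochondrial enzyme for each amino acid, ordered by the gap between them, with the median of all probe sets (0.29, dashed) and the log2 of the top 5% ratio (1.36, dotted). Circles lie above squares in all pairings but *Cars* and *Cars2*, no point reaches the dotted line, and bars of most pairings overlap.

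The log2 difference of all probe sets moved with level. Over 20 bins of probe sets of like mean log2 intensity, the median log2 difference of all probe sets went from -0.0026 in the dimmest bin to 1.24 in the brightest. The level is a mean over all 4 arrays and so includes the CUGBP1 IP values. A larger difference can thus raise a gene's own level, and the bins are not independent of the difference read against them. Read against the median of its own bin, a synthetase was higher in 6 of 16 cases among the cytosolic, 0 of 2 among the dual-located and 7 of 16 among the mitochondrial enzymes. *Sars2* was the 1 member above the 95th percentile of its bin (0.78, with 0.69 for the bin), and 0 of 34 were below the 5th. The 14 cytosolic enzymes above background on all 4 arrays had a median of 0.75, beside 0.73 for all 7727 such probe sets. The 3 mitochondrial enzymes above it on all 4 arrays, *Tars2*, *Mars2* and *Wars2*, had a median of 0.24, and the cytosolic minus mitochondrial difference of medians was 0.51 there, beside 0.36 over all members. The part of level in the difference between the classes was not tested.

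**Figure D3:**
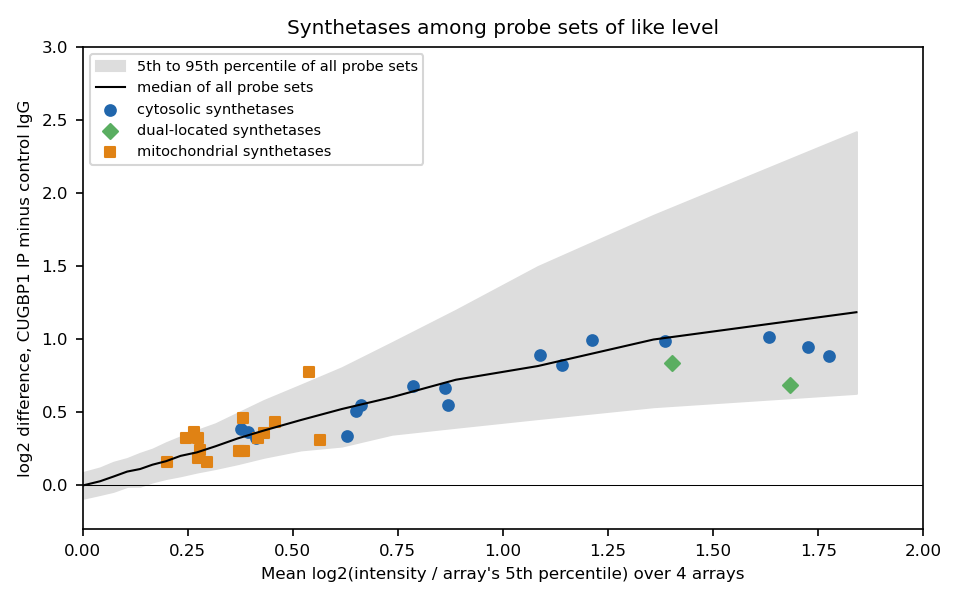
Log2 difference of each synthetase (CUGBP1 IP minus control IgG) against its mean log2 intensity over the 4 arrays, with the median (line) and the 5th to 95th percentile (grey) of all probe sets in bins of like level. The synthetases lie along the line, with *Sars2* above the grey band at 0.78 and *Gars* (0.84) and *Kars* (0.69) below the line.

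How far a lack of calls reaches was read from the 95% intervals. Their widths follow the spread of probe sets of like intensity, and are not the precision of each gene's own 2 arrays per group. The 95% intervals of 7 cytosolic enzymes and of *Gars* and *Kars* reached past the log2 of the top 5% ratio, 1.36, up to 2.30 for *Sars*. For these 9 a difference of the size seen in the top 5% was not detectable as present or absent at this precision. The intervals of the other members ended below it. With widths shared by level, that does not show that such a difference was absent.

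Of other genes of the route to charged tRNA, 26 of 27 listed were measured, by 27 probe sets. limma called 0 of the 27, where 1.95% of all probe sets were called higher, and 8 of 27 were higher at an unadjusted p under 0.05, beside 6009 of 21044. In the top 5% of all probe sets lay 1 of the 27, and the median log2 difference was 0.53. *Eef1e1*, a scaffold protein of the multisynthetase complex, read 7.51 and 9.12 against 1.41 and 3.69. Its ratio of 3.26 lay at percentile 97.1, and its log2 difference of 1.86 (SE 0.87) missed the threshold (limma adjusted p = 0.151). Over control IgG replicate 1 alone the ratio was 5.90, and over replicate 2 alone 2.25. The other scaffold transcripts, *Aimp2* and *Aimp1*, had ratios of 1.72 and 1.38.

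Among factors that carry or export tRNA, *Eef1a1*, which brings charged tRNA to the cytosolic ribosome, read 141 and 200.4 against 31.8 and 128 (log2 difference 1.39, limma adjusted p = 0.156). That list ranged down to 0.55 for *Tsfm*, the exchange factor of the mitochondrial counterpart. For other routes to charged tRNA, *Sephs1* had the largest difference (1.26, limma adjusted p = 0.150). *Mtfmt*, which formylates the mitochondrial initiator tRNA, had the smallest (0.11). *Gatc*, a subunit of the amidotransferase that makes mitochondrial glutaminyl-tRNA from the product of *Ears2*, had 1.02, while *Ears2* itself had 0.24 and the other subunits *Gatb* and *Qrsl1* had 0.26 and 0.28. Charging and editing genes ran from 0.17 for *Prorsd1* to 0.62 for *Ppa1*.

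Mitochondrial translation also needs the mitochondrial ribosomal proteins. Of their 84 probe sets, 77 were above background on all 4 arrays and the median log2 difference was 0.60, beside 3 of 16 and 0.32 for the synthetases. limma called 3 of the 84 higher, beside 1.95% of all probe sets, and 2 of the 84 were in the top 5%. The difference between these groups of genes was not tested.

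**Figure D4:**
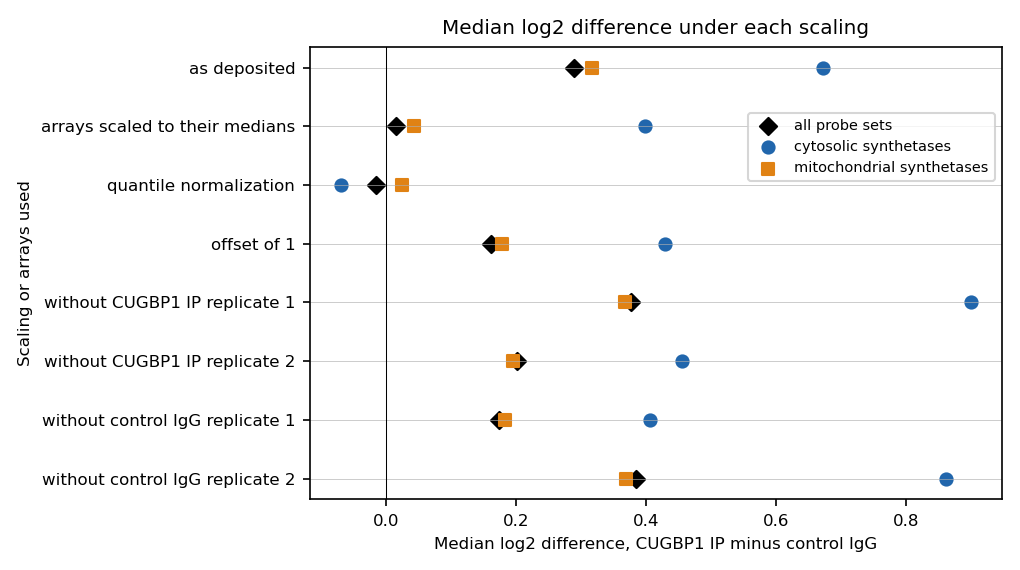
Median log2 difference (CUGBP1 IP minus control IgG) of all probe sets, of the 16 cytosolic and of the 16 mitochondrial synthetases, as deposited, under other scalings and an offset, and with each array left out. The cytosolic median lies right of the others in each row except quantile normalization, where it is -0.069 and that of the mitochondrial enzymes 0.025.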

How the data were processed

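RNA of 2 CUGBP1 and 2 control IgG immunoprecipitates was hybridized to Affymetrix Mouse Gene 1.0 ST arrays, 1 per sample, with 100 ng of RNA each. The deposited values are linear intensities, which the authors divided by the 5th percentile of each array. The program that summarised probe sets is not given in the sources used here. That division does not equalise the bright end of the arrays. Samples were grouped by title. Nothing says that replicates were separate cultures, so the spread between these samples may be technical. With the intensity trend, the SEs, intervals and p-values follow the spread of probe sets of like intensity, not that of each gene's own replicates. The unadjusted limma p of *Nars* was 0.118 with the trend and 0.0115 without it, and that of *Iars* 0.0352 and 0.0973.

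Of 25175 probe sets, a platform annotation gave 21044 exactly 1 gene, 1492 several and 2639 none. Symbols were updated by gene identifier through a RefSeq table (GRCm38.p6), which held 20959 of them. Log2 values were compared with limma 3.58.1 in R 4.3.3 (lmFit, eBayes with an intensity trend). Background was the 95th percentile of 1198 olfactory and vomeronasal receptor probe sets on each array. The fit was tested on simulated data. The members, lists and tests were chosen with earlier results of these data known. By rule, array values were given for called or top 5% synthetases, the 3 highest and 3 lowest log2 differences and the widest and narrowest pairs, and pathway genes were named if called, in the top 5% or at the ends of a list. Other named genes were chosen after their values were seen, as were the promoter letters and the bins of like level. Alternatives were an offset of 1, scaling to medians, quantile normalization, 2 background filters, no trend, all probe sets, a replicate block and leaving out each array. Transcript and protein sequences were not used here.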

Additional observations from a re-analysis of the deposited data

How the results depend on the processing

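No synthetase was called lower, or lay in the top 5%, under any alternative run. limma called 0 of 34 higher with an offset of 1, quantile normalization, no intensity trend, all probe sets tested, only probe sets above background on all 4 arrays (19 synthetases left) and each array left out. It called 1 with arrays scaled to their medians (*Sars2*). Among probe sets above background on both CUGBP1 IP arrays it called 2 of the 30 left (*Sars2* and *Pars2*). That filter uses the CUGBP1 IP values under test, so these 2 calls lend no support. With a replicate block 29 synthetases and 11809 of all probe sets were called higher. The labels do not say that replicate numbers mark a shared lysate, so the samples were not treated as paired; the correlation of replicate 1 minus replicate 2 between the groups was 0.64. Over all probe sets the calls higher, 411 as reported, were 763 with the offset, 1477 with medians, 0 without the trend (4757 at an unadjusted p under 0.05), 270 above background on all 4 arrays, 846 on both CUGBP1 IP arrays, and 0 to 0 with an array left out (955 to 6022 at an unadjusted p under 0.05). The calls lower, 29 as reported, were 51 with medians, 18 with quantile normalization, 44 with all probe sets, and 0 without the trend, under both background filters and with an array left out. The median log2 difference of all probe sets was 0.015 with medians, -0.016 with quantile normalization, and 0.73 and 0.58 under the background filters on all 4 and on the CUGBP1 IP arrays. With quantile normalization the median was -0.069 for cytosolic, -0.39 for dual-located and 0.025 for mitochondrial enzymes, and the cytosolic minus mitochondrial difference of medians -0.094. The mitochondrial median was 0.18 with the offset and 0.043 with medians. Leaving out an array gave 0.17 to 0.38 for all probe sets, 0.41 to 0.90 for cytosolic, 0.23 to 1.29 for dual-located and 0.18 to 0.37 for mitochondrial enzymes, and 0.22 to 0.53 for the difference of medians. With medians the log2 difference was below 0 for *Mars2* (-0.038), *Yars2* (-0.11), *Aars2* (-0.042), *Wars2* (-0.040), *Nars2* (-0.11), *Ears2* (-0.032) and *Lars2* (-0.089). With quantile normalization it was below 0 for *Mars2* (-0.15), *Eprs* (-0.25), *Farsb* (-0.10), *Iars2* (-0.035), *Mars1* (-0.013), *Tars* (-0.13), *Yars2* (-0.024), *Aars2* (-0.10), *Hars* (-0.018), *Lars* (-0.064), *Nars* (-0.28), *Wars2* (-0.14), *Tars2* (-0.14), *Sars* (-0.36), *Yars* (-0.074), *Gars* (-0.23), *Cars* (-0.26), *Kars* (-0.55), *Qars* (-0.43) and *Lars2* (-0.13). For *Yars2* it ran from -0.012, without control IgG replicate 1, to 0.34, without control IgG replicate 2. The cause of these shifts was not tested. With 2 arrays a group, and 15 of 34 synthetases not above background on every array, small differences were not detectable.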
